A study of Mus musculus with 8 samples.

Results

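The tumor necrosis factor (TNF) superfamily, the TNF receptor associated factors (TRAFs), the Toll-like receptors (TLRs) and the NF-kB genes below them were followed in mouse kidney RNA. Members were taken by gene symbol: every symbol opening with Tnfsf, Tnfrsf or Tlr and a digit, every symbol made of Traf and 1 digit, and 9 genes chosen by name (Tnf, Nfkb1, Nfkb2, Rela, Relb, Nfkbia, Nfkbiz, Tnfaip3 and Myd88). The rule found 59 genes among the 20245 entries of each deposited table. They comprised 12 ligands, 20 receptors, 7 TRAFs, 12 TLRs, 1 adapter, 4 NF-kB subunits and 3 inhibitors or cofactors of NF-kB. The rule uses symbols and no measured value.

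The 8 libraries came from whole kidneys of mice labelled C57BL/6, with 2 libraries in each of 4 groups. PKD_FP kidneys were from mice with autosomal dominant polycystic kidney disease (ADPKD) given flavopiridol, and PKD_DMSO kidneys were from ADPKD mice given DMSO. WT_FP kidneys were from wild-type mice given flavopiridol, and WT_DMSO kidneys were from wild-type mice given DMSO. The sources used here do not name the mutated gene, a Cre driver, the dose, the duration of treatment or the age. Nor do the labels tell whether the 2 libraries of a group are from different animals, and p-values therefore reflect no more than the spread between these libraries.

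ADPKD is an inherited disease in which renal tubules widen into fluid-filled cysts, and flavopiridol inhibits cyclin-dependent kinases, among them CDK9, the kinase of the elongation factor P-TEFb. Ligands of the TNF superfamily bind cell surface receptors that recruit TRAF proteins, while TLRs recognise microbial products and signals of tissue damage and, in most cases, recruit the adapter MYD88 and then TRAF6. Both routes lead to NF-kB, a family of paired transcription factors held inactive by inhibitors of the IkB type. NF-kB in turn drives genes of inflammation and its own brakes, among them Nfkbia and Tnfaip3, and in kidney these pathways are known from tubular cells as well as from resident and infiltrating myeloid cells.

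The stretch of 250 bases before an annotated start of transcription is shown for 6 members, because NF-kB acts through a 10-base DNA element, the kappaB site. The first 4 (Tlr2, Tnfaip3, Nfkb2 and Traf3) are the members with higher RNA in PKD_DMSO than in WT_DMSO kidneys, by the test described further on, whose window holds a match to the kappaB consensus. Nfkbia has a match without such a difference, and Tnfrsf12a had the largest difference on the log2(FPKM + 1) scale. Sequences are from RefSeq on build GRCm38.p6 and run 5′ to 3′ on the strand of the gene, with matches to the consensus on either strand in capitals. The windows are chr3:83841609-83841858 (minus strand), chr10:19015411-19015660 (minus), chr19:46304487-46304736 (plus), chr12:111166120-111166369 (plus), chr12:55492648-55492897 (minus) and chr17:23677450-23677699 (minus).
Tlr2: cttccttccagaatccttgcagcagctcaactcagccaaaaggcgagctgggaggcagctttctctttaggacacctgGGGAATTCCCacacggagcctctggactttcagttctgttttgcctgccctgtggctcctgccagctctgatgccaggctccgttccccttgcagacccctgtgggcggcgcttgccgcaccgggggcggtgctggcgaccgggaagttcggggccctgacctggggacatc
Tnfaip3: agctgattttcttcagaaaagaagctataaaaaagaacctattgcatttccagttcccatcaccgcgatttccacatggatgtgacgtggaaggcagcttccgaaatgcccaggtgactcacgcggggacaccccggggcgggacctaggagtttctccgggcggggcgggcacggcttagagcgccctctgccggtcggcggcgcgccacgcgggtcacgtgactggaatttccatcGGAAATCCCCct
Nfkb2: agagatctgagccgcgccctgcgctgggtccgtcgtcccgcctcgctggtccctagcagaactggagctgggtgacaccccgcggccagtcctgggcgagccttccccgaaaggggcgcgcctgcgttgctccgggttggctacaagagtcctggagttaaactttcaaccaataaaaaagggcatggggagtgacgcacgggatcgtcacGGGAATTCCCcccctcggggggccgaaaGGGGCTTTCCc
Traf3: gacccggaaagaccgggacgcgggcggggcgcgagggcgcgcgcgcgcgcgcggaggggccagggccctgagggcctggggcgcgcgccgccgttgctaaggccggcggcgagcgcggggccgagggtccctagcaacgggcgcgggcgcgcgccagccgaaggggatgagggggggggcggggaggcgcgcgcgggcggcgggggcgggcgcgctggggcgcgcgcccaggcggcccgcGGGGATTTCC
Nfkbia: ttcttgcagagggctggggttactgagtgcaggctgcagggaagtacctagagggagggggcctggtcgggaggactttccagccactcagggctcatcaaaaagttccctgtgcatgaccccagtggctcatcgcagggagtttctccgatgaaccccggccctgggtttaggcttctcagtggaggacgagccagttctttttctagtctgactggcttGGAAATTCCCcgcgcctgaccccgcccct
Tnfrsf12a: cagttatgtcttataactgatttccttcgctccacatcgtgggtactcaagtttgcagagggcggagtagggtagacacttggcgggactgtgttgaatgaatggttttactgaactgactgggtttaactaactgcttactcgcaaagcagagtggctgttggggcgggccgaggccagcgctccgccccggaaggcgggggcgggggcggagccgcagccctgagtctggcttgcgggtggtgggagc

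The RefSeq table holds 1 window for Tlr2, Traf3, Nfkbia and Tnfrsf12a, 2 for Tnfaip3 and 3 for Nfkb2, of which the one farthest upstream is shown. The start site of the window lay 216 bases inside the annotated span of Tlr2, 49 bases inside that of Traf3 and 3743 bases inside that of Nfkb2, so the matches shown for these 3 genes lie downstream of the outermost annotated start, while for the other 3 genes the window ends at that start. Relative to the start site of its window, the match in Tlr2 opened 172 bases before it, that in Tnfaip3 12 bases before it and that in Traf3 10 bases before it. Nfkb2, which encodes the NF-kB subunit p100 and its processed form p52, had 2 matches in this window, 39 and 11 bases before the start. RefSeq windows were found for 47 of the 59 members. A kappaB match stood in 9 of these 47 (19.1%), against 5.67% of all 27025 symbols with a window, where a match in any window of a symbol was counted. The element bound by AP-1 factors, searched as TGANTCA on both strands, stood in 8 of the 47 (17.0%), against 7.82% of all symbols. Among members with higher RNA in PKD_DMSO kidneys, 4 of 16 with a window held a kappaB match, and among the other members 5 of 31 did. A match describes letters in the window and does not show that a factor was bound there.

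The deposited values are FPKM, fragments per kilobase of transcript and per fixed number of mapped fragments, and their sum ranged from 486060 to 572823 per library. Read totals were not in the files used here, so the depth behind each value is unknown. Kidney identity was checked on markers: the summed FPKM of 10 proximal tubule genes was 4343 to 5269 in PKD_FP, 2142 to 4244 in PKD_DMSO, 22170 to 23190 in WT_FP and 32480 to 32960 in WT_DMSO kidneys. WT_FP replicate 2 stood apart in 8 adipocyte markers, which summed to 1611 FPKM there and to 113 to 367 FPKM in the other libraries. Several marker lists moved with the genotype. The injured tubule list of 8 genes summed to 12560 to 13700 FPKM in PKD_FP and 13960 to 14160 FPKM in PKD_DMSO kidneys, against 1456 to 2096 FPKM in WT_FP and 1611 to 1702 FPKM in WT_DMSO kidneys. The 20 genes of the macrophage and myeloid list summed to 910 and 1272 FPKM in PKD_FP and to 884 and 1747 FPKM in PKD_DMSO kidneys, against 166 and 180 FPKM in WT_FP and 180 and 109 FPKM in WT_DMSO kidneys. All 20 were past the test's threshold under DMSO and none of the 20 was at 0 in any group. In RNA from whole kidney, fewer cells of a type and less RNA per cell cannot be told apart.

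Tests were run with limma on log2(FPKM + 1) over the 14391 genes that reached 1 FPKM in 2 or more libraries, and a gene was called when its Benjamini-Hochberg adjusted p was under 0.05. Fold changes on this scale understate the change of genes near or below 1 FPKM. Of the 59 members 45 entered the test. The other 14 stayed under the filter, and their highest value in any library was 1.12 FPKM (Tnfrsf9, PKD_DMSO replicate 1).

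**Figure D1:**
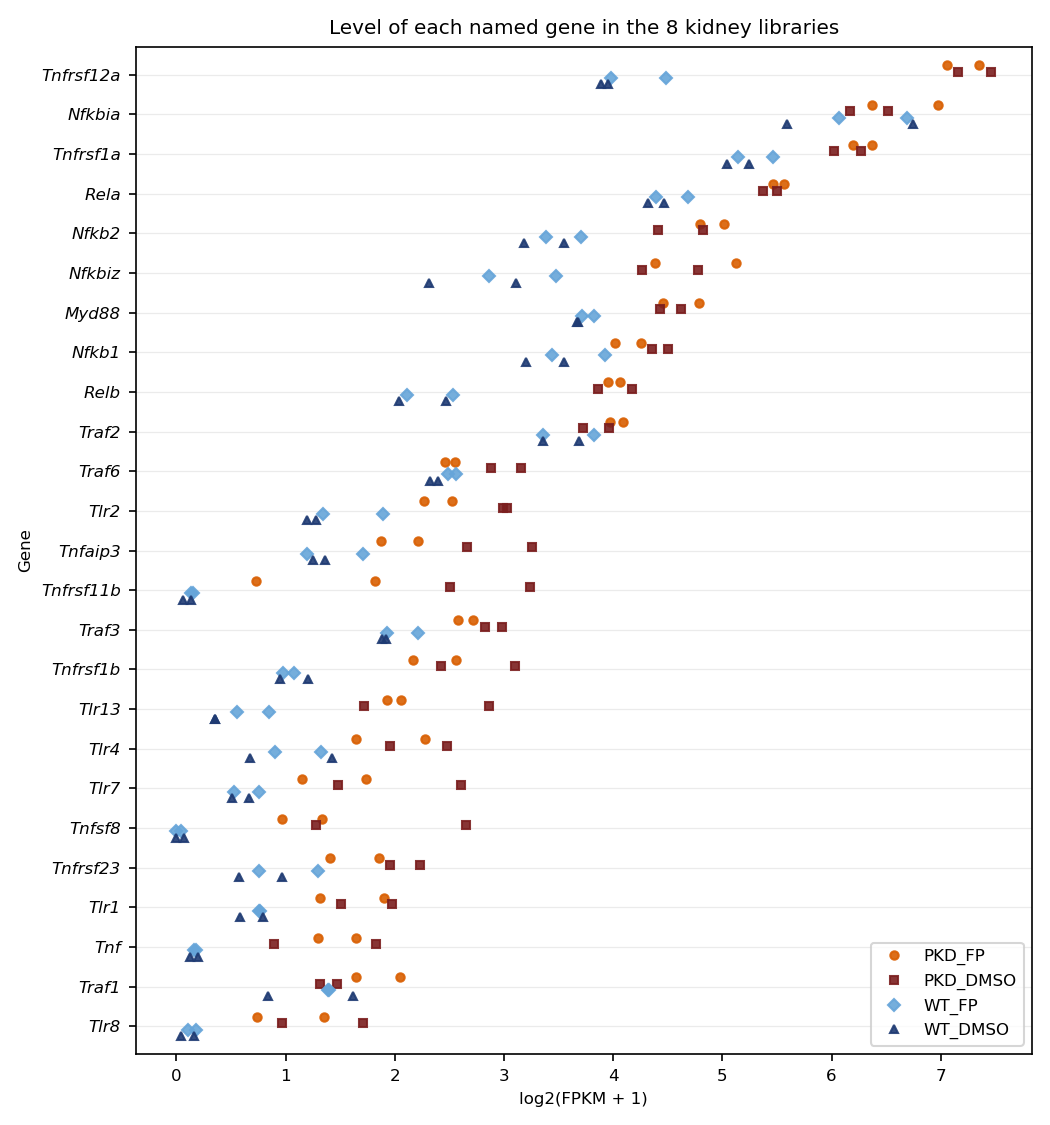
Level of 25 members in each of the 8 libraries: the horizontal axis is log2(FPKM + 1), each row is a gene, and each point is 1 library, with 2 per group (PKD_FP, PKD_DMSO, WT_FP, WT_DMSO). All 4 PKD points lie to the right of all 4 WT points for Tnfrsf12a, Tnfrsf1a, Rela and Relb, while the groups mix for Nfkbia.

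In polycystic kidneys given DMSO, receptors for TNF and TWEAK, 5 TLRs, MYD88 and all 4 NF-kB subunit genes among the members had more RNA than in wild-type kidneys given DMSO. Of the 5 TLRs, only Tlr2 reached 1 FPKM in a WT library. Of the 45 tested members, limma called 21 higher in PKD_DMSO kidneys and 0 lower, while 24 higher and 1 lower had an unadjusted p under 0.05. Over all genes tested 14.8% were called higher and 7.52% lower, and 24.9% and 13.1% had an unadjusted p under 0.05. The largest difference on the log2(FPKM + 1) scale was that of Tnfrsf12a, with a mean of 158 ± 23.8 FPKM in PKD_DMSO and 14.2 ± 0.467 FPKM in WT_DMSO kidneys (SD, n = 2 each), an 11.2-fold ratio of means. Ratios of means were higher for Tnfsf8, Tnfrsf11b, Tlr8, Tlr13 and Tnf among the called members, all under 1 FPKM in every WT library. The smallest log2 difference among the called was that of Traf6 (log2 fold change 0.66 ± 0.17 SE, limma adjusted p 0.0332).

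The count of 21 has to be read with the filter: 7 of the tested members had no WT library at 1 FPKM and entered the test only through PKD libraries, and all 7 were called. The 7 were Tlr1, Tlr7, Tlr8, Tlr13, Tnf, Tnfsf8 and Tnfrsf11b. Of the other 38 tested members, 14 were called. How many of all genes with a WT library at 1 FPKM were called was not counted. This count and later ones over the 38 therefore have no matched share beside them. With no filter on low values all 59 members entered, and 26 were called higher and 0 lower, while 9.18% of 20240 genes were called higher. The median log2 fold change was then 0.50 over the 59 members and 0.03 over all genes. The WT_FP libraries were in neither group but shared the estimate of spread. Leaving out either of them lost the calls of Tlr1, Tlr7, Tlr8, Tnf and Traf6, and over all genes fewer were called higher as well.

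**Figure D2:**
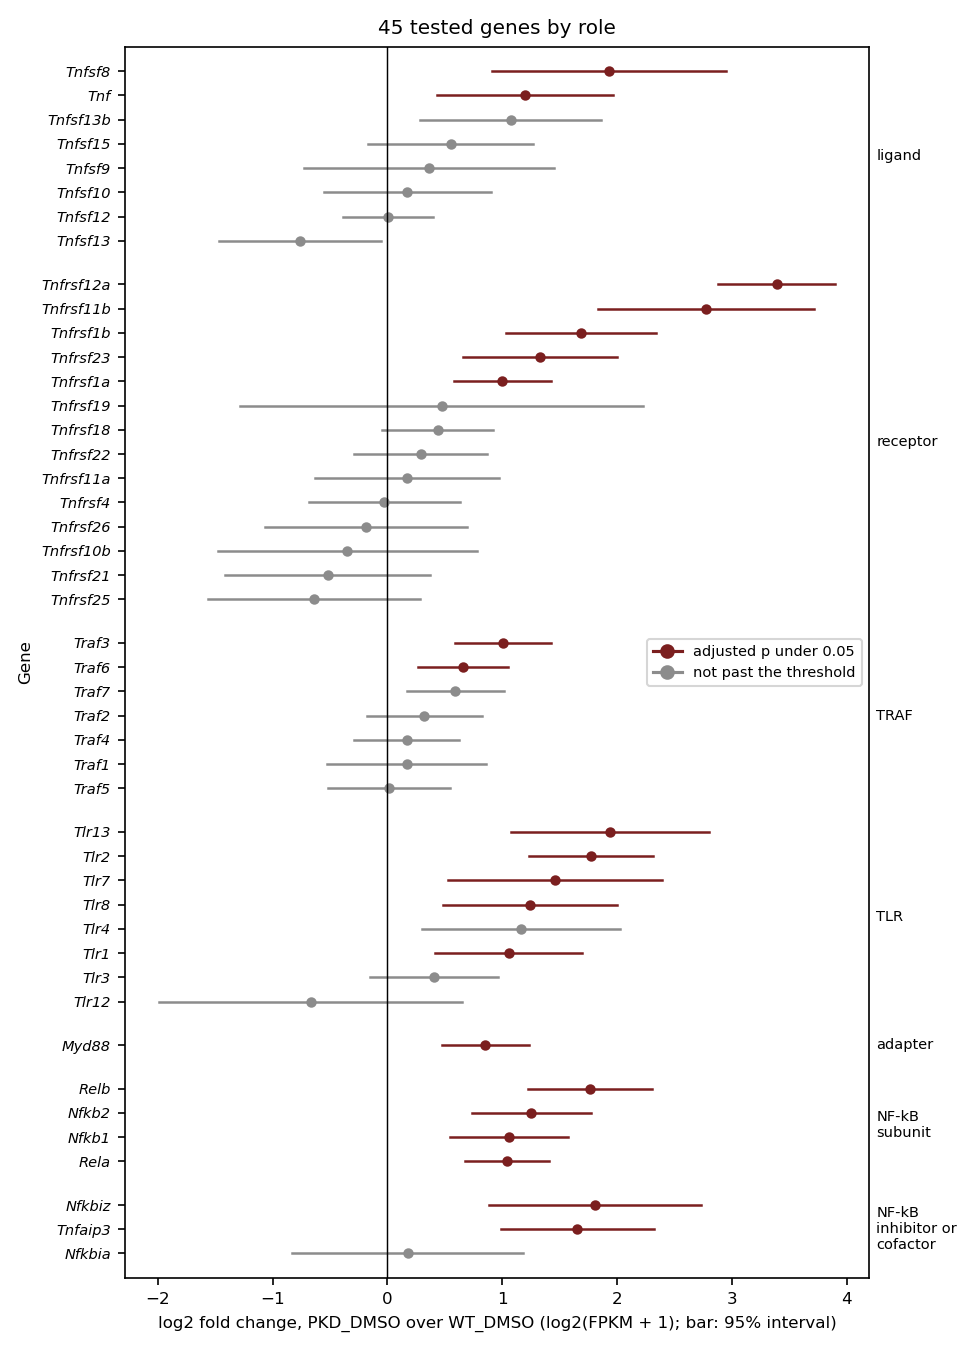
Log2 fold change of the 45 tested members in PKD_DMSO over WT_DMSO kidneys, on the log2(FPKM + 1) scale, with 95% intervals of the limma fit as bars, grouped by role. Dark red marks the 21 members with an adjusted p under 0.05, all of them to the right of 0, and Tnfrsf12a lies farthest right at 3.39.

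Among the ligands, Tnf and Tnfsf8 were the called members. Neither had a WT library at 1 FPKM, so both entered the test only through PKD libraries. None of the other tested ligands was called. Tnf, which encodes the founding cytokine of the family, had 1.46 and 2.13 FPKM in PKD_FP and 2.55 and 0.86 in PKD_DMSO kidneys, against 0.12 and 0.13 in WT_FP and 0.09 and 0.15 in WT_DMSO kidneys. All 4 PKD libraries were above all 4 WT libraries, and the PKD_DMSO replicates lay farther apart than those of any other group. The difference under DMSO was called (log2 fold change 1.199 ± 0.32 SE, limma adjusted p 0.0409), but it was lost in 4 of 7 other settings and in 7 of 8 fits with a library left out. Tnfsf8, which encodes the ligand of CD30, had 0.95 and 1.52 FPKM in PKD_FP and 1.42 and 5.29 in PKD_DMSO kidneys, against 0.03 and 0 in WT_FP and 0 and 0.05 in WT_DMSO kidneys (log2 fold change 1.93 ± 0.43 SE, limma adjusted p 0.0234). It was near 0 in every WT library, and PKD_DMSO replicate 2 was the highest of all 8. The receptor of this ligand, Tnfrsf8, had at most 0.13 FPKM in any library.

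Other ligands stayed without a call. Tnfsf12, which encodes TWEAK, the ligand of the TNFRSF12A receptor, had 25.2 and 28.4 FPKM in PKD_FP and 22.1 and 23.8 in PKD_DMSO kidneys, against 18.7 and 18.01 in WT_FP and 26.3 and 19.9 in WT_DMSO kidneys. The PKD_DMSO libraries lay between the WT_DMSO libraries, with an estimated difference of 0.00 on the log2 scale and a 95% interval of -0.39 to 0.40. Tnfsf13b, which encodes the B cell survival factor BAFF, had 2.75 and 4.58 FPKM in PKD_FP and 2.49 and 5.06 in PKD_DMSO kidneys, against 1.45 and 2.13 in WT_FP and 1.37 and 1.02 in WT_DMSO kidneys, and its difference missed the threshold (log2 fold change 1.07 ± 0.33 SE, limma adjusted p 0.0593). Tnfsf13, which encodes the related factor APRIL, was lower in both PKD_DMSO libraries, at 2.58 and 1.85 FPKM in PKD_DMSO kidneys, against 5.64 and 3.42 in WT_DMSO kidneys, and was not called (log2 fold change -0.76 ± 0.30 SE, limma adjusted p 0.110). Tnfsf12 and Tnfsf13 both overlap Tnfsfm13 and a lncRNA in the RefSeq annotation, and shared reads could have been split in counting. Of the remaining 7 ligands, Tnfsf9, Tnfsf10 and Tnfsf15 were tested without a call, and Tnfsf4, Tnfsf11, Tnfsf14 and Tnfsf18 stayed at or under 0.61 FPKM in every library.

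Of the 14 tested receptors 5 were called higher, and Tnfrsf12a led. Tnfrsf12a (chr17:23675445-23677449, minus strand, GRCm38.p6) encodes FN14, the receptor of TWEAK, known for its induction in injured epithelium. It had 162 and 132 FPKM in PKD_FP and 175 and 142 in PKD_DMSO kidneys, against 21.4 and 14.8 in WT_FP and 13.8 and 14.5 in WT_DMSO kidneys. Every PKD library was far above every WT library, and the PKD groups overlapped. Its call under DMSO (log2 fold change 3.39 ± 0.22 SE, limma adjusted p 0.00125) held in 8 of 8 other settings and with each of the 8 libraries left out in turn. Tnfrsf12a overlaps Hcfc1r1 in the RefSeq annotation, and whether the authors counted by strand is not stated.

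Tnfrsf11b (chr15:54250619-54278484) encodes osteoprotegerin, a secreted decoy receptor that captures RANKL and TRAIL. It had 0.66 and 2.53 FPKM in PKD_FP and 4.69 and 8.41 in PKD_DMSO kidneys, against 0.11 and 0.10 in WT_FP and 0.10 and 0.04 in WT_DMSO kidneys (log2 fold change 2.77 ± 0.39 SE, limma adjusted p 0.00660 under DMSO). WT libraries were at or under 0.11 FPKM, so Tnfrsf11b entered the test only through PKD libraries. PKD_FP libraries lay between the WT and the PKD_DMSO libraries. Tnfsf11, which encodes RANKL, reached at most 0.11 FPKM, and Tnfrsf11a, which encodes its signalling receptor RANK, had 1.29 and 2.37 FPKM in PKD_DMSO kidneys, against 1.97 and 1.05 in WT_DMSO kidneys and no call (interval -0.63 to 0.97). Tnfsf10, which encodes TRAIL, had 8.45 and 8.89 FPKM in PKD_DMSO kidneys, against 10.1 and 5.65 in WT_DMSO kidneys, and Tnfrsf10b, the mouse TRAIL receptor, had 12.2 and 10.2 FPKM in PKD_DMSO kidneys, against 22.4 and 9.29 in WT_DMSO kidneys. In both genes the PKD_DMSO libraries lay within the range of the WT_DMSO libraries.

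Both TNF receptors were called. Tnfrsf1a, which encodes TNFR1, the broadly expressed receptor that can signal survival or cell death, had 72.2 and 81.8 FPKM in PKD_FP and 63.9 and 76.1 in PKD_DMSO kidneys, against 34.3 and 43.1 in WT_FP and 36.9 and 32.01 in WT_DMSO kidneys (log2 fold change 0.9998 ± 0.18 SE, limma adjusted p 0.0124 under DMSO). Tnfrsf1b encodes TNFR2, found mainly on immune and endothelial cells, and had 3.50 and 4.91 FPKM in PKD_FP and 4.35 and 7.58 in PKD_DMSO kidneys, against 0.97 and 1.11 in WT_FP and 1.30 and 0.93 in WT_DMSO kidneys (log2 fold change 1.69 ± 0.28 SE, limma adjusted p 0.00962). For both receptors every PKD library was above every WT library. On the FPKM scale Tnfrsf1a was the more abundant of the pair in each of the 8 libraries. Tnfrsf23, a mouse decoy receptor for TRAIL, was also called, with 2.89 and 3.70 FPKM in PKD_DMSO kidneys, against 0.95 and 0.49 in WT_DMSO kidneys (log2 fold change 1.33 ± 0.28 SE, limma adjusted p 0.0205). Its neighbours Tnfrsf22 and Tnfrsf26 are similar in sequence and were not called, and reads shared among the 3 genes could have been split in counting.

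The other tested receptors overlapped between genotypes or missed the threshold. Tnfrsf21, which encodes death receptor 6, had 61.1 and 46.99 FPKM in PKD_FP and 74.8 and 58.8 in PKD_DMSO kidneys, against 129 and 75.01 in WT_FP and 69.2 and 132 in WT_DMSO kidneys. The WT replicates lay far apart in each treatment group, and the difference under DMSO was not called (log2 fold change -0.52 ± 0.38 SE, limma adjusted p 0.353). Tnfrsf25 was lower in both PKD_DMSO libraries, at 1.04 and 0.91 FPKM in PKD_DMSO kidneys, against 3.12 and 1.29 in WT_DMSO kidneys, without a call (log2 fold change -0.64 ± 0.39 SE, limma adjusted p 0.273). Tnfrsf4, Tnfrsf18 and Tnfrsf19, the remaining tested receptors, had no call. Tnfrsf8, Tnfrsf9, Tnfrsf13b, Tnfrsf13c, Tnfrsf14 and Tnfrsf17 stayed under the filter.

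Of the 7 TRAF genes 2 were called. Traf3, which encodes a brake on the noncanonical NF-kB route, had 4.99 and 5.59 FPKM in PKD_FP and 6.10 and 6.88 in PKD_DMSO kidneys, against 2.81 and 3.63 in WT_FP and 2.68 and 2.78 in WT_DMSO kidneys (log2 fold change 1.004 ± 0.18 SE, limma adjusted p 0.0115). Each PKD library was above each WT library. Traf6, which encodes the ubiquitin ligase downstream of the TLRs, had 4.50 and 4.86 FPKM in PKD_FP and 6.37 and 7.90 in PKD_DMSO kidneys, against 4.62 and 4.91 in WT_FP and 4.0 and 4.28 in WT_DMSO kidneys. Only the PKD_DMSO libraries stood above the rest, and the call under DMSO was lost in 4 of 8 other settings and with each of the 8 libraries left out in turn. Traf1, itself an NF-kB target, had 2.12 and 3.13 FPKM in PKD_FP and 1.78 and 1.49 in PKD_DMSO kidneys, against 1.62 and 1.64 in WT_FP and 2.07 and 0.79 in WT_DMSO kidneys and no call (log2 fold change 0.17 ± 0.29 SE, limma adjusted p 0.705). Traf2, which links TNFR1 and TNFR2 to kinases, had 14.6 and 12.2 FPKM in PKD_DMSO kidneys, against 11.9 and 9.26 in WT_DMSO kidneys and no call (log2 fold change 0.32 ± 0.21 SE, limma adjusted p 0.304). The PKD_DMSO and WT_DMSO libraries overlapped for Traf1 and were apart for Traf2. Traf7 had 27.8 and 30.98 FPKM in PKD_DMSO kidneys, against 21.7 and 16.8 in WT_DMSO kidneys without overlap and narrowly missed the threshold (log2 fold change 0.59 ± 0.18 SE, limma adjusted p 0.0555). For Traf4 and Traf5 the 95% intervals of the log2 difference ran -0.29 to 0.62 and -0.52 to 0.54.

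Of 8 tested TLRs 5 were called, and Tlr2 was the clearest. The other called TLRs, Tlr1, Tlr7, Tlr8 and Tlr13, had no WT library at 1 FPKM and entered the test only through PKD libraries. Of the tested TLRs with such a library (Tlr2, Tlr3, Tlr4 and Tlr12), only Tlr2 was called. Tlr2 (chr3:83836272-83841824, minus strand), which encodes a receptor for bacterial lipoproteins, had 4.74 and 3.83 FPKM in PKD_FP and 6.94 and 7.15 in PKD_DMSO kidneys, against 1.53 and 2.72 in WT_FP and 1.29 and 1.42 in WT_DMSO kidneys. The PKD_DMSO replicates lay close together and above every other library, and the call (log2 fold change 1.77 ± 0.23 SE, limma adjusted p 0.00492) held in 8 of 8 other settings and with any of the 8 libraries left out. Tlr1, which encodes a partner of TLR2, had 1.85 and 2.93 FPKM in PKD_DMSO kidneys, against 0.73 and 0.50 in WT_DMSO kidneys (limma adjusted p 0.0346). Its sequence is close to that of Tlr6, and reads shared by both could have been split in counting. Tlr6 stayed under the filter, with 0.62 and 0.83 FPKM in PKD_DMSO kidneys, against 0.13 and 0.15 in WT_DMSO kidneys.

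The endosomal receptors for RNA were low. Tlr7, which senses single-stranded RNA, had 1.22 and 2.33 FPKM in PKD_FP and 1.79 and 5.09 in PKD_DMSO kidneys, against 0.44 and 0.69 in WT_FP and 0.59 and 0.42 in WT_DMSO kidneys (log2 fold change 1.46 ± 0.39 SE, limma adjusted p 0.0409). Tlr8, its neighbour on the X chromosome, had 0.67 and 1.56 FPKM in PKD_FP and 0.96 and 2.27 in PKD_DMSO kidneys, against 0.08 and 0.13 in WT_FP and 0.12 and 0.03 in WT_DMSO kidneys (log2 fold change 1.24 ± 0.32 SE, limma adjusted p 0.0358). Tlr13, a mouse sensor of bacterial ribosomal RNA, had 2.80 and 3.17 FPKM in PKD_FP and 2.29 and 6.29 in PKD_DMSO kidneys, against 0.47 and 0.80 in WT_FP and 0.28 and 0.28 in WT_DMSO kidneys (log2 fold change 1.94 ± 0.36 SE, limma adjusted p 0.0145). In all 3 genes PKD_DMSO replicate 2 was the highest library, and it also had the highest macrophage and myeloid sum (1747 FPKM, against 884 FPKM in PKD_DMSO replicate 1). The part of myeloid cells in these differences was not tested. Without PKD_DMSO replicate 2, Tlr7 and Tlr13 had no call, and Tlr8 no longer passed the filter. The calls of Tlr7, Tlr8 and Tlr1 were also lost with only the groups compared in the fit.

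Tlr4, the receptor for lipopolysaccharide, had 2.13 and 3.85 FPKM in PKD_FP and 2.87 and 4.58 in PKD_DMSO kidneys, against 0.87 and 1.51 in WT_FP and 1.69 and 0.60 in WT_DMSO kidneys and narrowly missed the threshold (log2 fold change 1.16 ± 0.36 SE, limma adjusted p 0.0607). Both PKD_DMSO libraries were above both WT_DMSO libraries. Tlr3, the receptor for double-stranded RNA, had 4.94 and 4.66 FPKM in PKD_DMSO kidneys, against 3.80 and 3.0 in WT_DMSO kidneys and no call (log2 fold change 0.40 ± 0.24 SE, limma adjusted p 0.253). Tlr12, a mouse receptor for profilin of parasites, had 3.25 and 1.81 FPKM in PKD_DMSO kidneys, against 2.91 and 6.71 in WT_DMSO kidneys with overlapping groups and no call. Tlr5, Tlr9 and Tlr11 stayed under the filter. Myd88, the adapter shared by most TLRs, had 20.99 and 26.6 FPKM in PKD_FP and 20.6 and 23.6 in PKD_DMSO kidneys, against 12.1 and 13.2 in WT_FP and 11.8 and 11.7 in WT_DMSO kidneys (log2 fold change 0.85 ± 0.16 SE, limma adjusted p 0.0143). Its groups did not overlap between genotypes.

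The 4 NF-kB subunit genes were all called. Rela, which encodes p65, the main transactivating subunit of the canonical route, had 46.3 and 43.01 FPKM in PKD_FP and 44.3 and 40.4 in PKD_DMSO kidneys, against 20.1 and 24.7 in WT_FP and 21.2 and 18.98 in WT_DMSO kidneys (log2 fold change 1.04 ± 0.15 SE, limma adjusted p 0.00720). Nfkb1, which encodes its partner p105 and the processed p50, had 15.1 and 18.1 FPKM in PKD_FP and 19.5 and 21.7 in PKD_DMSO kidneys, against 9.85 and 14.2 in WT_FP and 10.7 and 8.20 in WT_DMSO kidneys (log2 fold change 1.06 ± 0.22 SE, limma adjusted p 0.0183). In both genes every PKD library exceeded every WT library. The ratio of PKD_DMSO to WT_DMSO means was 2.11 for Rela and 2.18 for Nfkb1.

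The subunits of the noncanonical route differed by a larger log2 estimate. Relb (chr7:19606217-19629438), which encodes the partner of p52, had 14.5 and 15.7 FPKM in PKD_FP and 16.99 and 13.5 in PKD_DMSO kidneys, against 3.32 and 4.78 in WT_FP and 4.53 and 3.10 in WT_DMSO kidneys. The ratio of means under DMSO was 4.0, and the call (log2 fold change 1.76 ± 0.23 SE, limma adjusted p 0.00510) held in 8 of 8 other settings and 8 of 8 fits with a library left out. Nfkb2 had 26.8 and 31.3 FPKM in PKD_FP and 27.3 and 20.3 in PKD_DMSO kidneys, against 9.44 and 12.03 in WT_FP and 10.7 and 8.08 in WT_DMSO kidneys (log2 fold change 1.25 ± 0.22 SE, limma adjusted p 0.0114). Whether Relb differed more than Rela was not tested. Nfkb2 overlaps Psd and a lncRNA in the RefSeq annotation, and Nfkb1 overlaps a lncRNA.

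Of the 3 inhibitors or cofactors of NF-kB, Tnfaip3 and Nfkbiz were called. Tnfaip3 (chr10:19000910-19015410, minus strand) encodes A20, an enzyme that edits ubiquitin and ends NF-kB signalling, and it had 2.67 and 3.63 FPKM in PKD_FP and 8.54 and 5.33 in PKD_DMSO kidneys, against 1.29 and 2.26 in WT_FP and 1.38 and 1.57 in WT_DMSO kidneys. The PKD_DMSO libraries stood above all others, and the call (log2 fold change 1.65 ± 0.28 SE, limma adjusted p 0.0106) held in 8 of 8 other settings and 8 of 8 fits with a library left out. Nfkbiz, which encodes IkB-zeta, a nuclear cofactor, had 19.9 and 34.0 FPKM in PKD_FP and 26.4 and 18.2 in PKD_DMSO kidneys, against 6.28 and 10.1 in WT_FP and 7.66 and 3.97 in WT_DMSO kidneys (log2 fold change 1.81 ± 0.39 SE, limma adjusted p 0.0214). Nfkbia, which encodes IkB-alpha, had 81.99 and 125 FPKM in PKD_FP and 90.8 and 70.8 in PKD_DMSO kidneys, against 66.05 and 102 in WT_FP and 106 and 47.2 in WT_DMSO kidneys. The WT_DMSO replicates spanned both PKD_DMSO values, and there was no call (log2 fold change 0.17, 95% interval -0.83 to 1.18).

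Without regard to the test, both PKD_DMSO libraries were above both WT_DMSO libraries for 31 of the 45 tested members, against 41.2% of all genes tested. The 31 include the 7 members that entered the test only through PKD libraries, and among the other 38 there were 24. Both were lower for 2 members, Tnfrsf25 and Tnfsf13, against 24.5% of all genes. Over all tested genes the median was 0.12 on the log2 scale in this comparison, and calls over all genes split 2130 higher to 1082 lower (66.3% higher). With median-of-ratios scaling 1544 were higher and 1327 lower (53.8% higher), and with quantile normalization 1700 were higher and 1522 lower (52.8% higher). Under both scalings 20 members were called higher and 1 lower, Tnfsf13.

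Leaving out 1 library at a time set apart 4 of the 21 calls, those of Tnfrsf12a, Tlr2, Relb and Tnfaip3, which held in each of the 8 such fits. Rela, Tnfrsf1b, Tnfrsf11b and Traf3 lost the call only without PKD_DMSO replicate 2. Tnfrsf1a lost it without WT_DMSO replicate 2 or PKD_DMSO replicate 2, and Nfkb2 without WT_DMSO replicate 2 or PKD_DMSO replicate 1. Nfkb1, Nfkbiz and Tnfrsf23 lost it without WT_DMSO replicate 2 or without either PKD_DMSO library, and Myd88, Tlr13 and Tnfsf8 without either WT_DMSO library or without PKD_DMSO replicate 2. Tlr1 kept the call in 2 of 8 fits, Tlr8 in 2 of 6, Tlr7 and Tnf in 1 of 8 each and Traf6 in 0 of 8. Each such fit leaves fewer libraries to estimate the spread, and over all genes the calls higher numbered 348 without PKD_DMSO replicate 2, against 2130 with all 8 libraries.

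Of the 14 members under the filter, 7 were called higher when every gene was tested with no filter. In that fit 9.18% of all 20240 genes were called higher. The share among all genes under the filter was not counted. Tlr6 had the smallest adjusted p of the 7 members (0.0218 by limma), and Tlr5, Tlr9, Tnfrsf9, Tnfrsf13b, Tnfsf14 and Tnfsf18 were the others. Tnfrsf9, which encodes the costimulatory receptor 4-1BB, had 0.46 and 0.58 FPKM in PKD_FP and 1.12 and 0.46 in PKD_DMSO kidneys, against 0.03 and 0.11 in WT_FP and 0.11 and 0.03 in WT_DMSO kidneys. Tnfrsf13b was listed at 0 in all 4 WT libraries, at 0.08 and 0 FPKM in PKD_FP and at 0.31 and 0.68 FPKM in PKD_DMSO kidneys. At such levels, with the read depth unknown, the values are given without a fold.

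**Figure D3:**
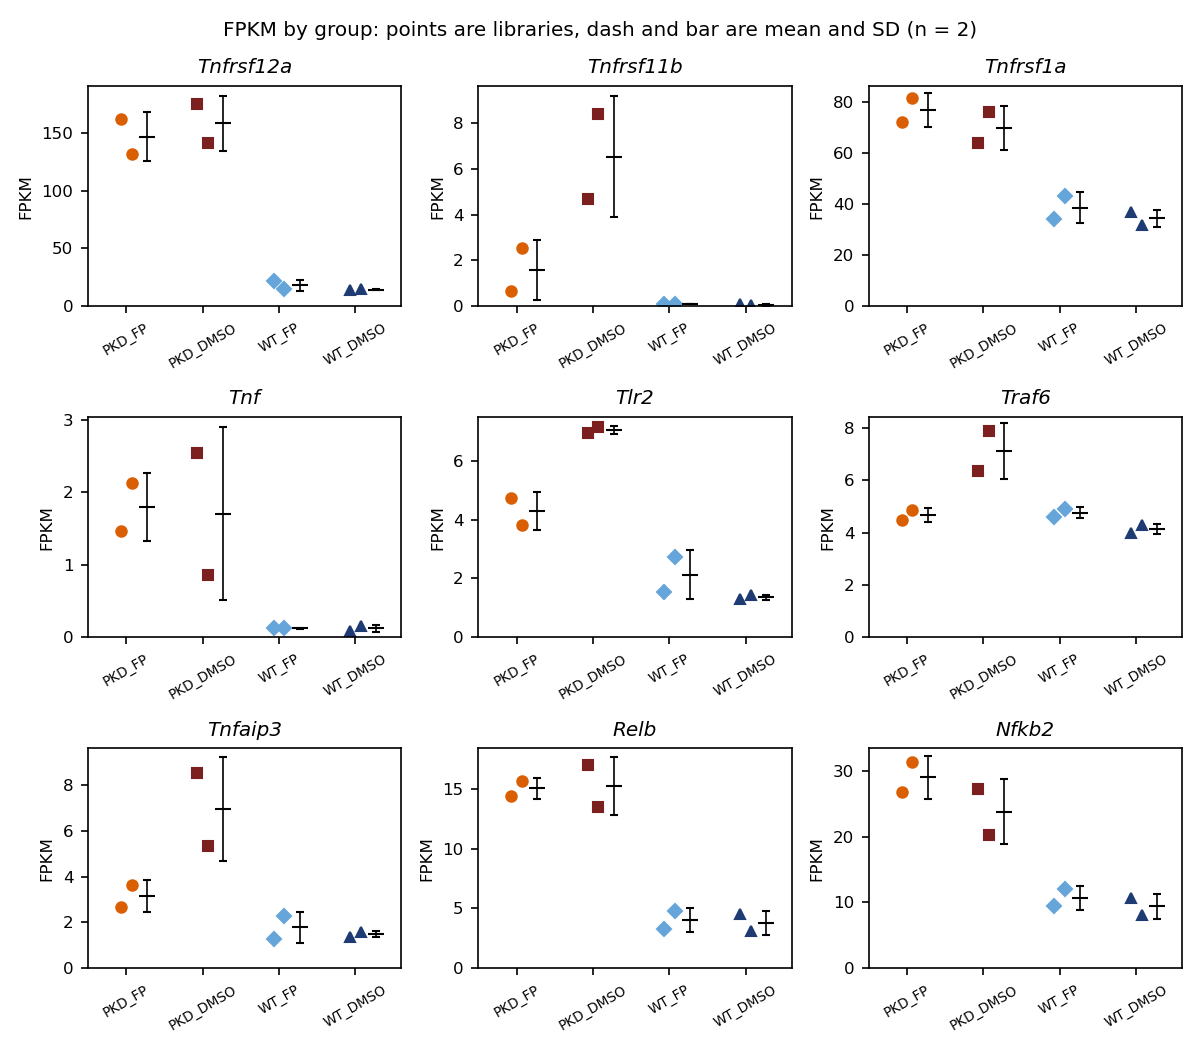
FPKM of 9 members in each library, with a panel per gene, an axis from 0 and groups in the order PKD_FP, PKD_DMSO, WT_FP, WT_DMSO. Points are libraries, and the dash and bar beside them are the group mean and SD (n = 2). PKD points lie above WT points for Tnfrsf12a and Relb, while for Tnfrsf11b, Tlr2 and Tnfaip3 the PKD_FP points lie below the PKD_DMSO points.

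Other genes of the pathways, taken from lists that hold no member, were counted in the same comparison. In a list of adapters, kinases and IkB family genes (54 measured), 14 of 49 tested were called higher and 0 lower in PKD_DMSO kidneys. At an unadjusted p under 0.05, 26 were higher and 1 lower. Over all genes tested 14.8% were called higher and 7.52% lower, and 24.9% and 13.1% had an unadjusted p under 0.05. Cd14, which encodes a coreceptor of TLR4, had 54.1 and 45.1 FPKM in PKD_DMSO kidneys, against 7.15 and 4.03 in WT_DMSO kidneys (log2 fold change 2.98 ± 0.41 SE, limma adjusted p 0.00627). Bcl3, which encodes a nuclear IkB protein that works with p50 and p52, had 28.4 and 18.8 FPKM in PKD_DMSO kidneys, against 3.42 and 3.12 in WT_DMSO kidneys (log2 fold change 2.50 ± 0.24 SE, limma adjusted p 0.00217). Birc3, which encodes the TRAF2 partner cIAP2, had 18.1 and 15.2 FPKM in PKD_DMSO kidneys, against 4.23 and 2.48 in WT_DMSO kidneys (log2 fold change 2.04 ± 0.27 SE, limma adjusted p 0.00565). Groups did not overlap in any of these 3 genes. Map3k14, which encodes the kinase NIK of the noncanonical route, was among the called too, at 7.93 and 6.16 FPKM in PKD_DMSO kidneys, against 3.64 and 2.29 in WT_DMSO kidneys, and was chosen after its values were seen.

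In a list of NF-kB target genes, 14 of 25 tested were called higher and 1 lower (30 measured), with a median log2 fold change of 1.49 over the tested genes, against 14.8% called higher, 7.52% called lower and a median of 0.12 over all genes. Of the 25, 9 had no WT library at 1 FPKM and entered only through PKD libraries. Of these 9, 2 were called higher, Ccl2 and Cxcl2. Among the other 16 genes 12 were called higher and 1 lower, and their median was 1.47. Lcn2, which encodes lipocalin 2 and is a marker of tubule injury as well, had 1125 and 741 FPKM in PKD_DMSO kidneys, against 9.06 and 6.44 in WT_DMSO kidneys (log2 fold change 6.72 ± 0.32 SE, limma adjusted p 0.000958). Cxcl1, a chemokine for neutrophils, had 30.6 and 21.8 FPKM in PKD_DMSO kidneys, against 1.42 and 1.66 in WT_DMSO kidneys (log2 fold change 3.40 ± 0.35 SE, limma adjusted p 0.00281). Ccl2, a chemokine for monocytes, had 8.44 and 10.6 FPKM in PKD_DMSO kidneys, against 0.45 and 0.38 in WT_DMSO kidneys (log2 fold change 2.89 ± 0.23 SE, limma adjusted p 0.00162). PKD_DMSO and WT_DMSO libraries were apart in all 3 genes. Cxcl2, a close relative of Cxcl1, had 30.1 and 2.87 FPKM in PKD_DMSO kidneys, against 0 and 0.20 in WT_DMSO kidneys (log2 fold change 3.33 ± 0.94 SE, limma adjusted p 0.0474), with replicates far apart in the PKD_DMSO group. Sod2, which encodes mitochondrial superoxide dismutase, was the one called lower, named after its values were seen, at 45.5 and 36.95 FPKM in PKD_DMSO kidneys, against 104 and 109 in WT_DMSO kidneys (log2 fold change -1.36 ± 0.15 SE, limma adjusted p 0.00367).

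Among TNF family genes with older names, 1 of 6 tested was called higher and 0 lower (14 measured), near the 14.8% called higher over all genes. That gene, which had no WT library at 1 FPKM and entered the test only through PKD libraries, was Ltb, which encodes lymphotoxin beta, a ligand of the noncanonical route, with 5.88 and 6.88 FPKM in PKD_FP and 4.04 and 3.01 in PKD_DMSO kidneys, against 0.59 and 0.64 in WT_FP and 0.70 and 0.54 in WT_DMSO kidneys (log2 fold change 1.47 ± 0.20 SE, limma adjusted p 0.00552). Its receptor Ltbr had 61.7 and 67.2 FPKM in PKD_DMSO kidneys, against 49.96 and 50.9 in WT_DMSO kidneys and no call (log2 fold change 0.35 ± 0.13 SE, limma adjusted p 0.104). Marker lists of tubule injury and proximal tubule moved in the same comparison, with 8 of 8 injured tubule genes (Lcn2 among them) called higher, 2 of 8 fibroblast and pericyte genes called higher and 7 of 10 proximal tubule genes called lower. Of the distal nephron and collecting duct list 3 of 12 were called lower, with 8 lower at an unadjusted p under 0.05, and of the B and plasma cell list 1 of 4 tested was called higher (Sdc1, named after its values were seen). Their part in the differences between members was not tested. No neutrophil, endothelial or T and NK cell marker was called by limma in this comparison, where 1 of 6, 0 of 8 and 1 of 6 tested genes were higher and 0, 1 and 0 lower at an unadjusted p under 0.05.

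The genotype comparison was repeated in mice given flavopiridol, on libraries that the comparison under DMSO did not use, though in the same fit. Limma called 9 members higher in PKD_FP than in WT_FP kidneys and 0 lower, where 8.71% of all genes were called higher and 5.23% lower; at an unadjusted p under 0.05 the members counted 17 higher and 0 lower, against 18.9% and 12.5% of all genes. The 9 were Tnf, Tnfrsf12a, Tnfrsf1a, Tnfrsf1b, Myd88, Nfkb2, Rela, Relb and Nfkbiz. These made up all 9 calls under flavopiridol and 9 of the 21 calls under DMSO. Among the 7 members with no WT library at 1 FPKM 1 was called, Tnf, and among the other 38 tested members 8 were.

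Tnfrsf12a again had the largest difference on the log2(FPKM + 1) scale (log2 fold change 2.97 ± 0.22 SE, limma adjusted p 0.00305), with means of 147 ± 21.3 FPKM in PKD_FP and 18.1 ± 4.64 FPKM in WT_FP kidneys (SD, n = 2 each), while Tnf, under 1 FPKM in every WT library, had a higher ratio of means. Relb followed (log2 fold change 1.69 ± 0.23 SE, limma adjusted p 0.0102), then Nfkbiz (log2 fold change 1.59 ± 0.39 SE, limma adjusted p 0.0416). Nfkb2 differed by 1.36 ± 0.22 SE on the log2 scale and Tnfrsf1b by 1.34 ± 0.28 SE. For each of the 9 genes both PKD_FP libraries were above both WT_FP libraries. For Tnfrsf1a, Rela and Myd88 the log2 fold change was 0.98, 0.97 and 0.85 under flavopiridol, against 0.9998, 1.04 and 0.85 under DMSO. Tnf (log2 fold change 1.30 ± 0.32 SE, limma adjusted p 0.0427) lost its call in 3 of 7 other settings and 6 of 8 fits with a library left out. Nfkbiz lost it in 3 of 8 other settings (no filter, the replicate block and only the groups compared in the fit) and in 6 of 8 fits with a library left out, and Myd88 and Tnfrsf1a lost it with only the groups compared. With a PKD_FP or WT_FP library left out, among them WT_FP replicate 2 with its high adipocyte markers, a group keeps a lone sample. Fewer members were then called higher, and fewer genes over the whole set tested as well. Across the other settings and the fits with a library left out, the log2 fold change of Tnfrsf12a ranged from 2.72 to 3.22.

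No TLR and no TRAF was called under flavopiridol, though 4 TLRs and 1 TRAF were higher at an unadjusted p under 0.05. Tlr13 came nearest (log2 fold change 1.29 ± 0.36 SE, limma adjusted p 0.0607), then Tlr2 (log2 fold change 0.78 ± 0.23 SE, limma adjusted p 0.0660) and Traf3 (log2 fold change 0.58 ± 0.18 SE, limma adjusted p 0.0726). Tnfsf12 was higher in both PKD_FP libraries than in both WT_FP libraries and was not called (log2 fold change 0.52 ± 0.17 SE, limma adjusted p 0.0831). Across both treatments all 4 PKD libraries were above all 4 WT libraries for 23 of the 45 tested members, against 22.0% of all genes tested, and below them for 0, against 11.7%. The 23 include the 7 members that entered only through PKD libraries, and among the other 38 there were 16. The adapter, kinase and IkB list had 9 of 49 tested genes called higher and 0 lower under flavopiridol. The NF-kB target list had 12 of 25 called higher and 1 lower. Over all genes tested 8.71% were called higher and 5.23% lower. Among the 16 target genes with a WT library at 1 FPKM, 9 were higher and 1 lower. Of the macrophage and myeloid list 17 of 20 genes were called higher, and the part of myeloid cells in the member differences was not tested.

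Flavopiridol against DMSO within polycystic kidneys gave no call among members. Limma called 0 of 45 higher and 0 lower, with 0 higher and 5 lower at an unadjusted p under 0.05. Over all genes 1 was called higher and 1 lower (0.00695% each), and 10.3% were higher and 9.14% lower at an unadjusted p under 0.05. The 5 members were Tnfrsf11b, Tnfaip3, Traf6, Tlr2 and Tnfrsf18. This comparison shares the PKD_DMSO libraries with the genotype comparison under DMSO.

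**Figure D4:**
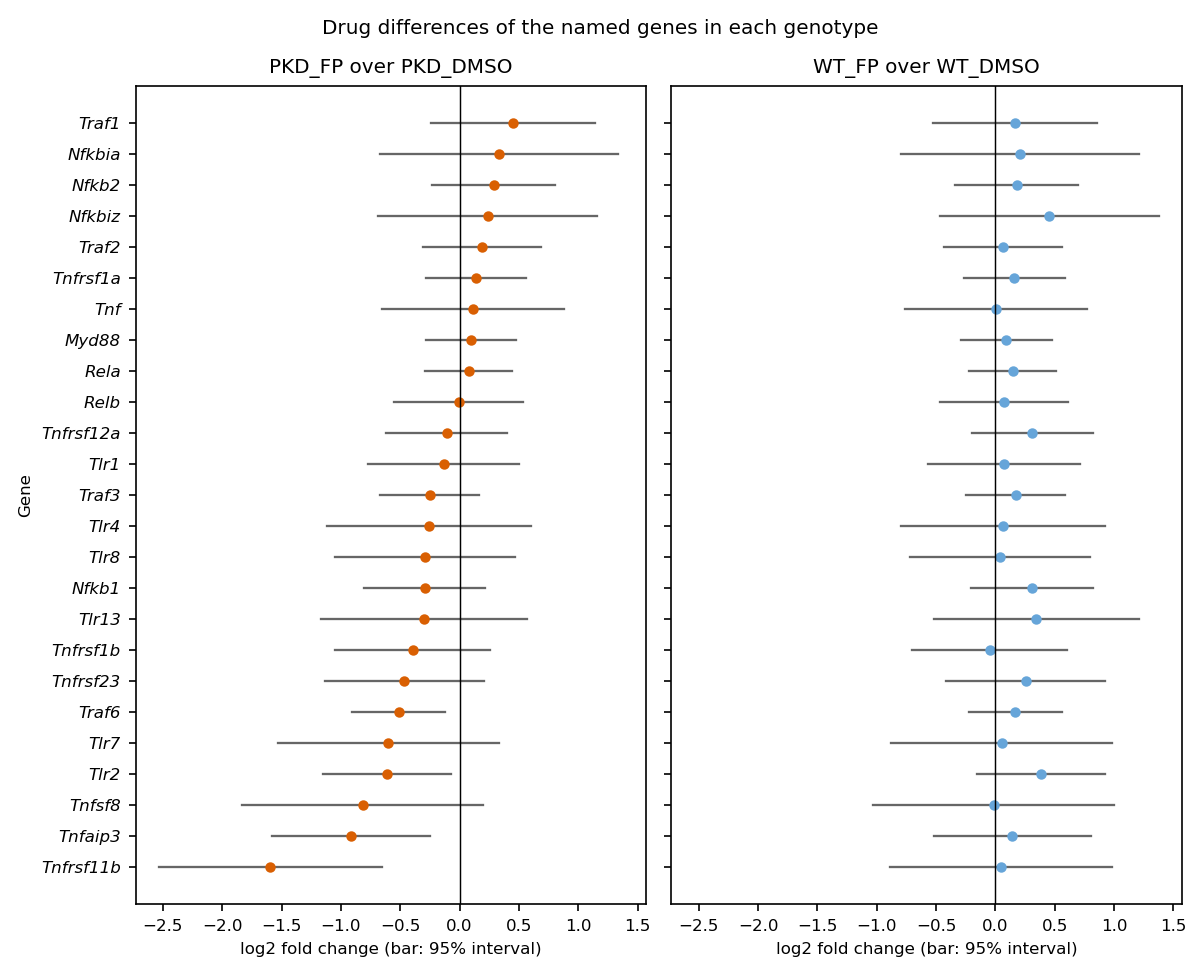
Log2 fold change of 25 members between flavopiridol and DMSO on the log2(FPKM + 1) scale, PKD_FP over PKD_DMSO in the left panel and WT_FP over WT_DMSO in the right panel; points are estimates and bars are 95% intervals of the limma fit. No member passed the adjusted threshold in either genotype, and Tnfrsf11b in PKD kidneys lies farthest from 0, at -1.60.

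The osteoprotegerin gene Tnfrsf11b had a mean of 1.59 ± 1.32 FPKM in PKD_FP and 6.55 ± 2.63 FPKM in PKD_DMSO kidneys (SD, n = 2 each). Its log2 difference was -1.60 (95% interval -2.54 to -0.66, limma adjusted p 0.132), and the groups did not overlap. Tnfaip3 averaged 3.15 ± 0.679 FPKM in PKD_FP and 6.93 ± 2.27 FPKM in PKD_DMSO kidneys (log2 difference -0.91, limma adjusted p 0.164). For Tlr2 the log2 difference was -0.61 (limma adjusted p 0.215) and for Traf6 it was -0.51 (limma adjusted p 0.177). Both PKD_FP libraries were below both PKD_DMSO libraries for 8 members, against 25.2% of all genes tested, and above them for 9, against 31.4%.

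Members high in polycystic kidneys for which the interval of the drug difference was narrow are given for comparison. Tnfrsf12a differed by -0.11 (95% interval -0.62 to 0.40) between PKD_FP and PKD_DMSO kidneys. Relb differed by -0.01 (-0.55 to 0.53), Rela by 0.08 (-0.29 to 0.44) and Tnfrsf1a by 0.14 (-0.29 to 0.56). These intervals exclude a change of 1 log2 unit in either direction, as they did for 25 of the 45 tested members, and they leave room for smaller ones. Genes near or below 1 FPKM, such as Tnf, are among the 25, and the log2(FPKM + 1) scale understates their change. The macrophage and myeloid list had 0 of 20 genes called in this comparison, with 1 higher and 0 lower at an unadjusted p under 0.05.

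In wild-type kidneys flavopiridol against DMSO gave 0 calls among members and 0 among all genes (0.0% in each direction) by limma. At an unadjusted p under 0.05, 0 members and 131 genes (0.91%) were higher and 0 members and 52 genes (0.361%) were lower. Tnfrsf12a had 21.4 and 14.8 FPKM in WT_FP kidneys, against 13.8 and 14.5 in WT_DMSO kidneys, a log2 difference of 0.31 (95% interval -0.20 to 0.82). Both WT_FP libraries were above both WT_DMSO libraries for 7 members, against 16.6% of all genes tested, and below them for Tnfsf12, against 5.32%. The 95% interval lay within 1 log2 unit of 0 for 35 of the 45 tested members. Among the 35 were Tnf, Tlr1, Tlr7, Tlr8 and Tnfrsf11b, under 1 FPKM in every WT library. The log2(FPKM + 1) scale understates changes at such levels, so their intervals do not bound the fold change in FPKM.

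The test of whether the drug difference depended on genotype called no member and no gene (0.0% in each direction) by limma, with 0 members higher and 4 lower at an unadjusted p under 0.05, against 4.45% and 6.78% of all genes. The members with the smallest unadjusted p were Tlr2 (log2 estimate -0.99 ± 0.32 SE, limma adjusted p 0.406), Tnfrsf11b (-1.64 ± 0.56 SE, limma adjusted p 0.409) and Traf6 (-0.68 ± 0.23 SE, limma adjusted p 0.411). In Tlr2, Traf3 and Traf6 both FP libraries were below both DMSO libraries in PKD kidneys and above them in WT kidneys. That pattern held for 3 of 45 tested members (6.67%) and for 5.58% of all genes tested. With 2 libraries against 2, an exact two-sided permutation test of a single gene cannot give a p below 0.333.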

How the data were processed

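Kidney RNA was extracted with TRIzol, selected with oligo(dT) and made into libraries by BGI, per the labels' protocols. The submitters' processing notes name Bowtie2, DESeq2 and mm10 without role or version. The deposited FPKM values, rounded to 2 decimals, carry no unit in the file headers; FPKM was inferred from their sums and their length-weighted sums.

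Members, gene lists and tests were chosen with earlier results of these data known. Of 20245 entries, 4 entries of 2 duplicated symbols and 1 without a symbol were left out. On log2(FPKM + 1), limma 3.58.1 in R 4.3.3 fitted the 4 group means to all 8 libraries (empirical Bayes, trend and robust), for genes reaching 1 FPKM in 2 or more libraries. Two-sided p-values were adjusted by Benjamini-Hochberg over 14391 genes, with a threshold of 0.05. The fit was also run on data simulated from its own estimates of spread, which does not test the filter or the log2(FPKM + 1) scale.

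Members called under DMSO, or up to 10 in each other comparison, the 3 with the smallest interaction p and 16 fixed genes were named by rule, 25 in all; values of other members are given to account for all 59 and were chosen after they were seen. Alternatives changed the filter, pseudocount, scaling, replicate block, fit settings and libraries. Coordinates and promoters are RefSeq, GRCm38.p6.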

Additional observations from a re-analysis of the deposited data

How the results depend on the processing

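Calls rested on 2 libraries a group, an unknown read depth and a scale that damps genes under 1 FPKM. A fit without 1 library leaves a lone sample, assumed to vary like the other groups. With single libraries left out, members higher in PKD_DMSO over WT_DMSO kidneys ranged from 6 to 18. They numbered 6 without PKD_DMSO replicate 2, 8 without WT_DMSO replicate 2 and 13 without WT_DMSO replicate 1. Members higher in PKD_FP over WT_FP kidneys ranged from 1 to 10. Adapter, kinase and IkB genes higher ranged from 4 to 13 under DMSO and from 1 to 9 under flavopiridol, NF-kB target genes higher from 9 to 14 and from 5 to 12, and NF-kB target genes lower under flavopiridol from 0 to 1. With only the groups compared in the fit, 9 adapter genes were higher under DMSO and 5 under flavopiridol. With no filter, 2 older-named TNF family genes were higher under DMSO and 3 under flavopiridol. Members lower in PKD_DMSO kidneys numbered 1 (Tnfsf13) under median-of-ratios scaling and 1 under quantile normalization, and quantile normalization gave 1 adapter gene lower. Over all genes, the fit of only the groups compared called 1261 higher and 707 lower under DMSO, and 550 and 325 under flavopiridol. Over all comparisons there were 3750 values of single members under an alternative. Of these, 3608 kept their side of the threshold, 112 lost a call, 30 gained one and 0 changed direction with a call. Only the 21 calls under DMSO and the 9 under flavopiridol could be lost. Most of the 3750 values started without a call.

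Replicate numbers were not shown to pair the libraries: deviations of same-numbered libraries correlated between -0.515 and 0.485 over the 6 pairs of groups. With a replicate block, 18 members were higher in PKD_DMSO and 7 in PKD_FP kidneys, and over all genes 1438 were higher and 785 lower under DMSO and 650 and 437 under flavopiridol. The WT_DMSO numbers were also exchanged in the block, an alternative added after seeing the data. Then 24 members were higher and 1 lower under DMSO and 19 higher and 1 lower under flavopiridol. Calls rose over all genes too, to 3258 higher and 1821 lower under DMSO and 2184 and 1498 under flavopiridol. Adapter genes counted 23 higher and 1 lower, then 16 and 1, and 2 older-named TNF family genes were higher under DMSO.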

Other observations

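Some T and NK cell markers, which lay outside the TNF, TRAF and TLR families, differed between genotypes in mice given flavopiridol. Of the T and NK cell list, 12 genes measured and 6 tested, limma called 4 higher and 0 lower in PKD_FP over WT_FP kidneys. The lowest log2 fold change among the 6 was -0.47. Over all genes tested 8.71% were called higher and 5.23% lower. Cd3g and Cd4 had no WT library at 1 FPKM, entered the test only through PKD libraries and were both called. Among the other tested genes of the list 2 of 4 were called. The summed level of the list was 14.7 to 17.2 FPKM in PKD_FP and 6.58 to 8.84 FPKM in PKD_DMSO kidneys, against 4.82 to 5.90 FPKM in WT_FP and 9.22 to 9.53 FPKM in WT_DMSO kidneys. Limma called 0 of the 6 in PKD_DMSO over WT_DMSO kidneys, where 1 was higher and 0 lower at an unadjusted p under 0.05. For the interaction of genotype and drug 0 of the 6 were called, with 3 higher and 0 lower at an unadjusted p under 0.05. The count of 4 rested on single libraries: it was 1 without WT_FP replicate 1, 2 without WT_FP replicate 2 and 0 without either PKD_FP library. It was 1 with only the groups compared in the fit and 2 with a replicate block. The list was picked for mention after its values were seen.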
